A study of Drosophila melanogaster with 3 samples.

Results

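The genes described here are the microRNA genes of Drosophila melanogaster, taken as every gene of the RefSeq annotation of dm6 whose symbol begins with mir-. The gene bantam carries the symbol mir-ban in this annotation and falls under the same rule. There were 262 such genes, and all 262 have the biotype miRNA. Of these, 260 lie on the chromosomes 2L, 2R, 3L, 3R, 4 and X, among 17807 annotated genes on the main chromosomes, and were examined. The others, mir-10404-1 and mir-10404-2, are ribosomal DNA copies that the annotation assigns to X and Y together, and they were not analysed here. Each gene is the short stretch that folds into the hairpin precursor, with a median length of 92 bp and a range of 50 to 174 bp.

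All data come from 1 group of 3 CUT&Tag libraries, in which an antibody tethers a transposase that tags DNA near the protein it recognises. The genotype was nub>GFP;UAS-BunA-HA: wing discs from larvae of the third instar, kept at 25 °C, carried the nubbin driver with GFP and an HA-tagged BunA, an isoform of bunched, under UAS. The dissected discs were dissociated at 37 °C. The nubbin driver works mainly in the pouch that forms the wing blade. The gene bunched encodes leucine zipper proteins of the TSC22 family, and the long isoform BunA is known to promote growth. The protein was expressed ectopically and detected through its tag, and no library without the tag was analysed here. Whether the libraries, called replicates 1 to 3, came from separate crosses or animals is not stated in the labels, so the spread between them may be technical. They held 9268, 9005 and 9225 peaks, and sequencing depth is unknown because the lists hold no read counts. A consensus region is a stretch of merged peaks to which all 3 libraries contributed, and 5768 were found on the main chromosomes. Fold enrichment is the authors' value at a peak's summit over the background estimated by the peak caller.

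MicroRNAs are short RNAs that pair with messenger RNAs and lower their translation or stability. Their hairpins are cut from longer primary transcripts, which are either separate non-coding RNAs or the introns and other parts of protein-coding transcripts. In the wing disc bantam is known as a target of Yorkie, the coactivator of the Hippo pathway, and it promotes growth and blocks cell death by repressing the death gene hid. The start site of a primary transcript can lie many kilobases from its hairpin, so a region near a hairpin need not be a region at the promoter.

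Of the 260 microRNA genes, 50 (19.2%) had a consensus region within 2000 bp, against 28.1% of all annotated genes by the same call. Outside protein-coding genes 23 of 92 (25%) had such a region, and inside or overlapping protein-coding genes 27 of 168 (16.1%). Neighbouring hairpins can count through the same region: the strongest regions of the 23 were 16 distinct ones, and those of the 27 were 24. Other non-coding genes, which are longer on the whole, had shares of 24.3% outside and 31.9% inside protein-coding genes. Among other classes the shares were 28.3% for protein-coding genes, 50.7% for tRNA genes and 34.6% for snoRNA genes. By position alone, 11.9% of the bases outside protein-coding genes and 13.8% of those inside lay within 2000 bp of a consensus region. Long genes reach more of the chromosome with the same window, so the share of bases is the nearer yardstick for a hairpin. No test was made of these shares.

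Libraries differed little in this count. A peak lay within 2000 bp of 63 microRNA genes in replicate 1, 60 in replicate 2 and 57 in replicate 3, where all annotated genes gave 34.1%, 35.6% and 35.7%. Outside protein-coding genes the counts were 29, 26 and 25 of 92, or 29.0% ± 2.26 (SD, n = 3), and inside they were 34, 34 and 32 of 168, or 19.8% ± 0.687. The share outside was higher in 3 of 3 libraries, by 9.14 ± 1.85 percentage points (SD, n = 3). The libraries were scored on the same genes, so this SD covers the peak calls and not the choice of genes, and the difference between the classes was not tested. It was higher outside under the other windows, peak thresholds and choices of libraries that were tried as well, but lower when the window was laid around the whole gene that contains the hairpin, a setting chosen after the data were seen (34.8% outside, 50% inside).

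**Figure D1:**
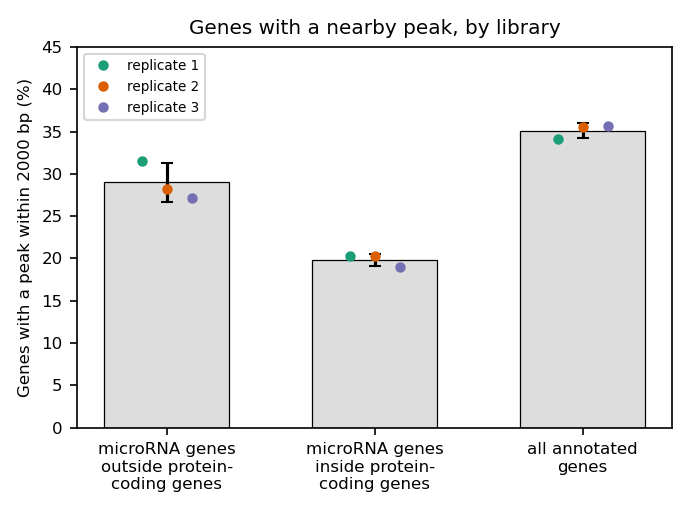
Share of genes with a peak within 2000 bp in each library (vertical axis, percent), for microRNA genes outside and inside protein-coding genes and for all annotated genes. Bars are means of the 3 libraries, error bars are SD and points are libraries. The microRNA genes outside protein-coding genes averaged 29.0% and those inside 19.8%, both under the 34.1% to 35.7% of all genes.

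Hairpins themselves were seldom covered. A consensus region overlapped 2 of the 260 genes, 1 outside and 1 inside a protein-coding gene, where 14.8% of all annotated genes, most of them far longer, were overlapped. Within 1000 bp there were 28 microRNA genes with a region (10.8%, against 23.1% of all genes), and within 5000 bp there were 90 (34.6%, against 40.1%). The median distance to the nearest consensus region was 7598.5 bp for microRNA genes outside protein-coding genes and 10705.5 bp for those inside. For other non-coding genes the order was the opposite, with 10552.5 bp outside and 5872 bp inside. Only 13 of the 92 microRNA genes outside protein-coding genes were more than 20000 bp from a region, against 53 of the 168 inside.

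**Figure D2:**
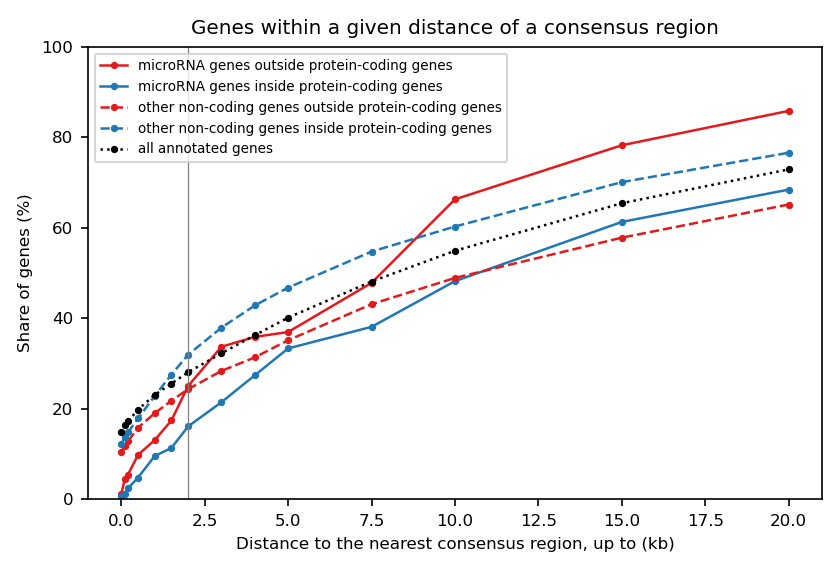
Cumulative share of genes (vertical axis, percent) within a given distance of the nearest consensus region (horizontal axis, kb), for microRNA genes (solid lines), other non-coding genes (dashed lines) and all annotated genes (dotted line). The grey line marks the window of 2000 bp, within which 25% of microRNA genes outside and 16.1% of those inside protein-coding genes had a region.

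The regions near microRNA genes were ordinary in strength. The 50 genes had 58 distinct regions in their windows, since neighbouring hairpins shared regions. Their median fold was 8.21, against 8.20 for all consensus regions. In single libraries it was 7.94, 8.55 and 8.47, against 7.94, 8.39 and 8.26. Their median width was 213 bp, against 237 bp. Of the 58 regions, 22 (37.9%) were centred within 1000 bp of a protein-coding gene boundary, against 41.3% of all consensus regions. For the boundaries of any gene other than a microRNA gene the count was 30 (51.7%), against 48.2%.

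Among microRNA genes that control growth and survival, mir-ban had a region in its window, but a weak one. The hairpin of bantam lies at 642208 to 642288 on 3L within lncRNA:CR43334, a 15466 bp non-coding gene for which the annotation gives the synonym pri-bantam. The region at 640252 to 640665, 1543 bp from the hairpin, had folds of 4.73, 7.54 and 7.51 in replicates 1, 2 and 3, a mean of 6.59 ± 1.61 (SD, n = 3). Replicate 1 was the low library, and the region ranked at the 43.0th percentile of peaks within a library on average. It was lost with a window of 1000 bp and when summits had to lie within 100 bp of each other. A further region inside the non-coding gene, at 639502 to 639691 and 2517 bp from the hairpin, had 8.49, 9.09 and 8.04. The strongest of the 4 regions in or near lncRNA:CR43334 lay across its boundary far from the hairpin, at 627965 to 628567. It had folds of 12.1, 11.97 and 13.7 (12.6 ± 0.942), was 13641 bp from the hairpin, and all 3 libraries exceeded the region beside the hairpin. The annotation table used here has no strand, so which end of the non-coding gene is its start is not stated.

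A stronger region stood beside mir-14, which is known to suppress cell death and to act in ecdysone signalling. The hairpin at 9553762 to 9553824 on 2R lies in lncRNA:CR43651, listed with the synonym pri-mir-14. The region at 9552582 to 9553009 crosses the boundary of that gene and had folds of 15.8, 16.1 and 18.4, a mean of 16.8 ± 1.46 (SD, n = 3). Weaker regions lay on either side of it, with 5.99 ± 1.204 and 4.43 ± 0.553, the second of them 217 bp from the hairpin.

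The remaining growth and survival genes with a region lay inside protein-coding genes. mir-2a-1 and mir-2b-2, of the family that represses the death genes reaper, grim and sickle, lie in spi, which encodes the EGFR ligand Spitz. They shared a region at 19571942 to 19572206 on 2L with folds of 7.60, 6.92 and 7.08 (7.20 ± 0.356; SD, n = 3), 1970 and 1678 bp from the hairpins. mir-308, in the ribosomal protein gene RpS23, had 5.09, 5.36 and 5.75 (5.40 ± 0.335) at 1445 bp, centred outside its host. Both means were below the median fold of all consensus regions, 8.20. Of the 18 listed growth and survival genes, 5 had a region (27.8%), where all microRNA genes gave 19.2%. All annotated genes, most of them far longer, gave 28.1%. mir-2a-1 and mir-2b-2 counted through the same region, and the share of the list was not tested. No region of all 3 libraries lay within 2000 bp of mir-2a-2, mir-2b-1, mir-2c, mir-13a, mir-13b-1, mir-13b-2, mir-6-1, mir-6-2, mir-6-3, mir-11, mir-184, mir-278 or mir-8.

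Of 6 listed microRNA genes of ecdysone response and ageing, 5 had a region, where all annotated genes gave 28.1%. The list was written by hand with earlier results of these data known, so its share is no test of the group. It does not hold mir-let7, which had no region in its window. mir-277 and mir-34 counted through the same region, and with mir-317 they form 1 locus when members within 10000 bp are joined. The let-7 complex, which is switched on at metamorphosis, encodes mir-100, mir-let7 and mir-125 within lncRNA:let7C at 18455717 to 18473132 on 2L. The only region within 2000 bp of a hairpin there lay 1491 bp from mir-100, at 18469728 to 18469943, with folds of 5.89, 4.89 and 7.16 (5.98 ± 1.14; SD, n = 3). The distance from mir-let7 to the same region was 2091 bp, just beyond the window. The non-coding gene as a whole held 8 consensus regions in or near it. At the boundary 15529 bp from the nearest hairpin a region at 18455588 to 18455905 had 8.61, 8.34 and 11.1 (9.34 ± 1.502), and the next, at 18456069 to 18456228, had 11.0, 9.46 and 10.7 (10.4 ± 0.821). A broad region of 722 bp, 2384 bp from the nearest hairpin, had 9.54 ± 1.33.

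The pair mir-277 and mir-34 shared a region that lay between their hairpins on 3R. mir-34 is known for its part in ageing and neuronal maintenance, and mir-277 for the control of amino acid catabolism. The region at 10100605 to 10100825 was 484 bp from mir-277 and 111 bp from mir-34, inside lncRNA:CR43459, and had folds of 9.47, 13.5 and 12.3 (11.7 ± 2.05; SD, n = 3). It was also centred 708 bp outside Fmr1, which encodes an RNA-binding protein. mir-317, from the same stretch of 3R, had a region of its own at 10089220 to 10089653 with 8.16, 8.97 and 9.45 (8.86 ± 0.648), 1473 bp away and inside another non-coding gene, lncRNA:CR45054. mir-282 had a region at 3249053 to 3249343 on 3L with 13.9, 11.4 and 15.2 (13.5 ± 1.89), 1679 bp from the hairpin and across the boundary of lncRNA:CR43626. That region was also centred 114 bp outside CG43389.

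Of 11 microRNA genes of wing disc patterning and sense organs, mir-279 and mir-996 had a region (18.2%), and they shared it. The share was 19.2% for all microRNA genes and 28.1% for all annotated genes. mir-279 and mir-996 act in sense organ lineages and lie in lncRNA:CR31044 on 3R. The region at 29214964 to 29215291 was 294 bp from mir-279 and 1893 bp from mir-996, with folds of 9.33, 9.83 and 7.68 (8.94 ± 1.13; SD, n = 3). The list members without a region in the window were mir-7, mir-9a, mir-9b, mir-9c, mir-79, mir-12, mir-263b, mir-315 and mir-263a, which this annotation calls mir-bft. None of the 4 genes of the Hox complexes (mir-10, mir-993, mir-iab-4 and mir-iab-8) had a region within 2000 bp, nor had the muscle genes mir-1 and mir-133 or mir-124 of the nervous system. No library had a peak in the windows of these 7 genes. Beside the shares above, these lists are too short for the absence to be read as a result, and no test was made. Of 19 listed genes of germ line and testis clusters, mir-982, mir-303, mir-983-1 and mir-983-2 had a region (21.1%), which was the same for all 4. It stood at 4366300 to 4366486 on X, across a boundary of CG3626 and centred 23 bp outside that gene. Its folds were 7.48, 5.69 and 8.18 (7.12 ± 1.28), and mir-303 lay 52 bp from it.

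**Figure D3:**
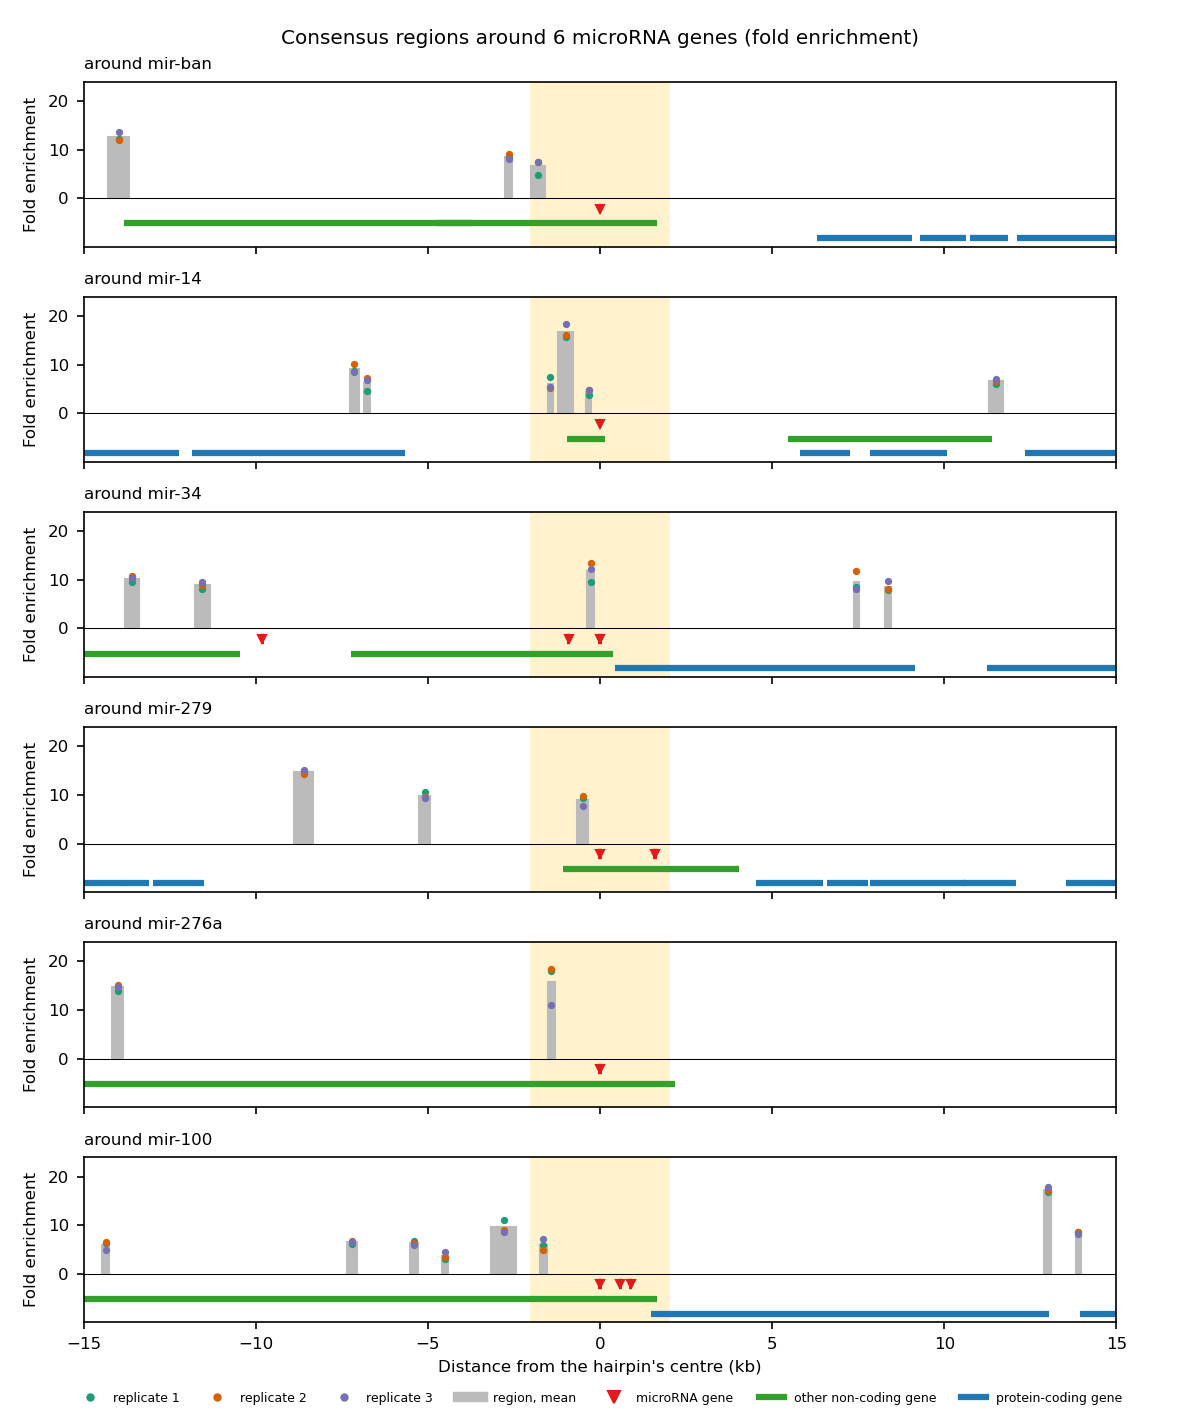
Consensus regions within 15 kb of the hairpins of mir-ban, mir-14, mir-34, mir-279, mir-276a and mir-100 (horizontal axis, kb from the hairpin's centre). The bars give the mean fold enrichment over the 3 libraries and dots the libraries (vertical axis), and lines below 0 are annotated genes by kind. The shaded band is the window of 2000 bp. For mir-ban the regions with means of 12.6 and 8.54 lie outside the band, at and in the non-coding gene that holds the hairpin, and for mir-14 the region of 16.8 lies inside it.

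Of the members outside protein-coding genes that stand in no functional list, mir-954, mir-276a and copies of mir-10404 had the highest folds. mir-954, at 626126 to 626212 on chromosome 4, was the only hairpin there that a region covered. The region at 625966 to 626267 had folds of 25.0, 28.5 and 27.1, a mean of 26.8 ± 1.78 (SD, n = 3). It was also centred 134 bp outside mav, which encodes a TGF-beta family ligand. Its lowest library exceeded every library of the other members in the plot of folds by member. mir-276a, which acts in olfactory memory, had a region at 10363763 to 10363972 on 3L with 18.0, 18.3 and 11.1 (15.8 ± 4.10), replicate 3 being the low library. That region lay 1256 bp from the hairpin inside lncRNA:CR46006, a gene of 43950 bp that held 3 others with means of 10.2, 13.2 and 14.7.

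The copies mir-10404-3 and mir-10404-5, of a microRNA of the ribosomal DNA repeats, lie on X. For mir-10404-5 the annotation shows no ribosomal gene close by. The nearest boundary of a gene other than a microRNA gene, that of 2SrRNA:CR45864, was 244445 to 246702 bp from the centres of its regions. The strongest regions had 19.2, 22.1 and 20.5 (20.6 ± 1.49; SD, n = 3) near mir-10404-3, 597 bp away in a 28S ribosomal pseudogene. Near mir-10404-5 they had 14.9, 18.7 and 17.5 (17.0 ± 1.94), 1742 bp away. Since the repeats are near-identical and the treatment of multiply mapping reads is not given in the sources used here, these positions are uncertain. The sister copy mir-10404-4 had a peak over its hairpin in replicate 3 and in no other library.

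The remaining genes of this class, named after their values were seen, had folds below or near the median of all regions. The cluster neighbours mir-310, mir-311, mir-312 and mir-313 shared a region of 7.59 ± 1.54 (SD, n = 3), 1541 to 1979 bp away. mir-275 and mir-305 shared regions of 6.60 ± 0.979 and 5.69 ± 0.868. A stronger region near lncRNA:CR43857, the non-coding gene that holds mir-275, had 16.2 ± 0.462 and lay 3046 bp from the hairpin. That stronger region also lay across a boundary of the protein-coding gene chm. mir-280 had 7.79 ± 0.140 and mir-2496 had 8.09 ± 0.495.

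The genes that contain a hairpin were also examined along their whole length. Of 31 long non-coding and antisense genes that hold members outside protein-coding genes, 15 (48.4%) had a region in or within 2000 bp of the gene, where lncRNA and antisense RNA genes as a whole had 26.1%. Regions lay within 1000 bp of a boundary at 12 of 31 (38.7%), against 19.2%. The 31 genes had a median length of 7418 bp, against 727 bp for all genes of these biotypes, and the part of length in these shares was not tested. This count was chosen after the data were seen. lncRNA:CR45916, which holds mir-9a, had a region centred 331 bp outside its boundary with folds of 15.6, 14.9 and 13.4 (14.6 ± 1.16; SD, n = 3). The edge of that region was 2572 bp from the hairpin. mir-9a is known to limit the number of sense organ precursors. lncRNA:CR43650, which holds mir-8, a regulator of Wingless and insulin signalling, had regions of 9.15 ± 0.755 and 11.9 ± 1.40, centred 188 and 984 bp outside the gene. lncRNA:CR43314, which holds mir-bft, had 5 regions, the strongest, 13.3 ± 2.17, at the boundary 17339 bp from the hairpin. lncRNA:CR42651 with mir-10 and lncRNA:CR44206 with mir-184 had 1 region each, 11.5 ± 2.58 and 8.85 ± 0.759.

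Inside protein-coding genes, the strongest region was that near mir-4968, in Mob2, which encodes a kinase adaptor of the Mob family. It lay at 11553039 to 11553645 on 3L, 346 bp from the hairpin, and had folds of 17.3, 20.9 and 19.95, a mean of 19.4 ± 1.83 (SD, n = 3). The second was near mir-92a, in jigr1, a gene that acts with its microRNA in neural stem cells. The region 504 bp from mir-92a had 13.6, 19.5 and 16.1 (16.4 ± 2.98), and another at 1427 bp had 12.4 ± 2.23. Replicate 1 was the low library of both genes.

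Next in strength was the region near mir-967, which lies in bun itself, the gene of the protein that was tagged. The region at 12461230 to 12461499 on 2L, 1130 bp from the hairpin at 12460004 to 12460100, had 15.3, 15.3 and 17.3 (16.0 ± 1.18; SD, n = 3). The larvae also carried bun sequence in the UAS transgene, and the annotation table used here has no exons. Whether the region lies in sequence shared with the transgene was therefore not determined.

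Other members inside genes with a strong region had hosts of diverse function. mir-4955, in trol, which encodes the heparan sulfate proteoglycan perlecan, had folds of 13.4, 19.0 and 15.4 (16.0 ± 2.80; SD, n = 3) at 444 bp, and this region was centred 181 bp outside trol. mir-9374, in the nuclear receptor gene Hr39, had 13.0, 16.5 and 14.97 (14.8 ± 1.75) at 180 bp. mir-4985 in Fatp3, mir-4918 in tex, mir-4943 in CG5953, mir-4965 in the nuclear pore gene Nup153 and mir-2493 in CG42788 had means between 13.7 and 14.3. Of these, mir-4965 varied most between libraries, with 9.47, 16.0 and 15.7. Replicate 1 was lowest for mir-4985, mir-4918, mir-4965 and mir-2493, while replicate 3 was lowest for mir-4943. mir-9377, in Tis11, which encodes a protein that destabilises messenger RNAs, was the only hairpin inside a protein-coding gene that a region covered. Its region at 12665089 to 12665361 on X had 9.63, 10.9 and 11.4 (10.7 ± 0.940).

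The other members inside protein-coding genes are named here after their values were seen. mir-4949, in the ATP synthase gene ATPsynC, had 3 regions, of which the strongest had folds of 12.3, 9.88 and 12.5 (11.6 ± 1.48; SD, n = 3) and was centred 21 bp outside CG12054. mir-4957, in the topoisomerase gene Top1, had 9.61 ± 1.49 in a region centred 33 bp outside its host. mir-2501, in Nulp1, varied widely, with 5.48, 8.28 and 10.7. The pair mir-281-1 and mir-281-2, in the antizyme gene Oda, shared a strongest region of 7.57 ± 1.53 that was centred inside SmD3, a gene of the spliceosome. Weak regions, with means of 5.27 to 6.09, lay near mir-966 in Pfas, mir-4962 in Tlk, mir-4978 in the Notch coactivator gene mam, mir-2281 in cv-c and mir-4984 in PAPLA1. mir-4962 and mir-4978 had 3 regions each in their windows, and these means are of the strongest.

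**Figure D4:**
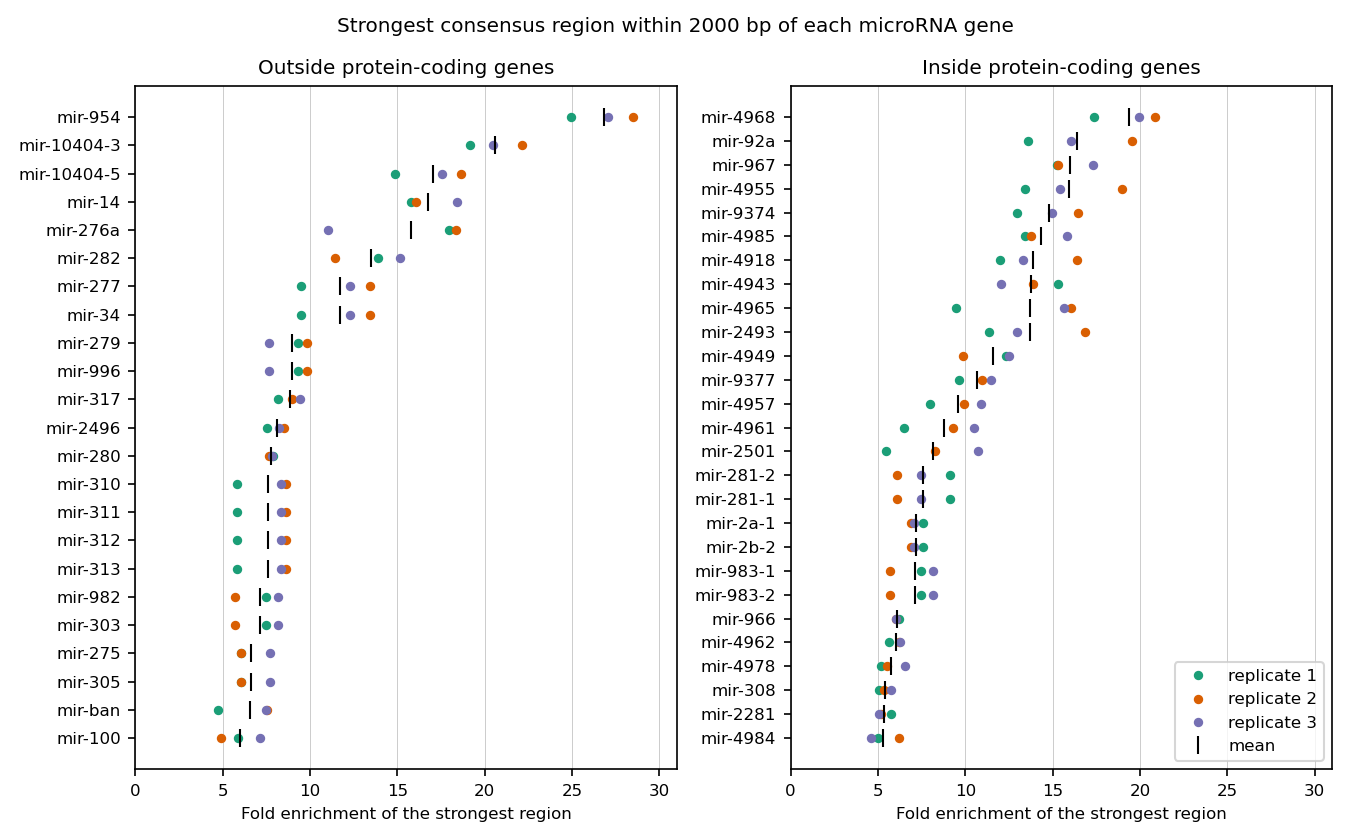
Fold enrichment of the strongest consensus region within 2000 bp of each of the 50 microRNA genes with such a region (horizontal axis), outside (left) and inside (right) protein-coding genes. Dots are the 3 libraries and ticks their means, and neighbours that share a region have the same values. mir-954 stands highest outside protein-coding genes with a mean of 26.8, and mir-4968 inside with 19.4.

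For the 27 members inside protein-coding genes the strongest region was centred in the host in 17 cases and outside it in the others. mir-4961 in ssx, for example, named after its values were seen, had its region across a boundary of AMPKalpha, centred 42 bp outside that gene. Members within 2000 bp of a boundary of their host had a region in 13 of 85 cases (15.3%), and deeper ones in 14 of 83 (16.9%). The 150 protein-coding genes that contain or overlap a member carried a region, in the gene or up to 2000 bp from it, in 72 cases (48%), against 28.3% of protein-coding genes. At a boundary the count was 54 (36%), against 20.6%. These hosts had a median length of 14094.5 bp, against 2161 bp, and the part of length was not tested.

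The mirtrons mir-1003 to mir-1017, hairpins released from introns that splicing cuts out, had no consensus region within 2000 bp in 15 of 15 cases. They all lie in protein-coding genes, and the group was chosen after its values were seen. Of all members inside protein-coding genes 16.1% had a region, and of all annotated genes 28.1%. The count for the mirtrons was not tested against these shares. The nearest region was 2094 bp away, from mir-1005, and the median distance was 10657 bp. Peaks of single libraries lay near mir-1008 and mir-1011, in replicates 2 and 3 for both.

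By chromosome, 13 of 58 members on X had a region, 10 of 56 on 2L, 11 of 55 on 2R, 5 of 31 on 3L, 10 of 58 on 3R and 1 of 2 on chromosome 4. Consensus regions numbered 1056 on X, 990 on 2L, 1095 on 2R, 1199 on 3L, 1335 on 3R and 54 on chromosome 4. All annotated genes together gave 28.1%. Their shares on each chromosome are not given here, so no difference between chromosomes can be read from these counts. Outside protein-coding genes, 10 of 43 members within another non-coding gene had a region (23.3%), and 13 of 49 members outside any such gene (26.5%).

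Members within 10000 bp of each other were joined into 198 loci, of which 38 (19.2%) had a region, where all annotated genes, taken singly, gave 28.1%. Loci of several members had a region in 9 of 27 cases (33.3%) and loci of a single member in 29 of 171. A locus of several members reaches farther along the chromosome, and neither the difference nor the part of reach in it was tested. The largest cluster, mir-972 to mir-979 with its neighbours on X, had 12 members and no region, and the cluster from mir-309 to mir-6-3 on 2R had 8 members and no region.

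Of the 210 microRNA genes without a consensus region in the window, 189 had no peak there in any library, 11 had a peak in 1 library, 9 in 2 and 1 in all 3. The last, mir-2283, had peaks at positions that were not shared by all libraries. These 34 peak and gene pairs were weak, with folds from 3.99 to 8.28 and a median of 5.62. With peaks of at least 2 libraries 60 members had a region (23.1%, against 33.7% of all genes). The 10 members added were mir-8, mir-1008, mir-1011, mir-2283, mir-2497, mir-2498, mir-4946, mir-4951, mir-4959 and mir-11182. At the edge of the window, mir-983-2 (1997 bp), mir-4918 (1985 bp), mir-313 (1979 bp) and mir-2a-1 (1970 bp) fell just inside. mir-2497 (2036 bp), mir-7 (2037 bp), mir-87 (2043 bp) and mir-let7 (2091 bp) fell just outside.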

How the data were processed

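Anti-HA CUT&Tag peaks were available for 3 libraries of 1 group. The peak names in the deposited lists carry 1 library each. Per the submitters' processing notes the build was dm6, and MACS2, Bowtie2, Bowtie and R 4.2.1 were among the tools. Aligner settings and the treatment of duplicates are not given in the sources used. The deposited lists give each peak a fold enrichment (a linear ratio), a −log10 p-value and −log10 q-value, and a score that follows the −log10 q-value. The lowest deposited −log10 q-value was 2.00, and no q-value filter was added. Start, end and summit in bp are also as deposited.

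Peaks overlapping by 1 bp were merged with Python 3.11.15 and pandas 2.3.3, and a consensus region needs a peak of all 3 libraries. Genes came from the RefSeq table of Release 6, which has no strand or exons. A region within 2000 bp of a gene, edge to edge, counts as near it. Lists of microRNA genes were written by hand from their known roles. The members and lists were chosen with earlier results of these data known. Members described singly were those of the lists with a region, the 15 with the highest mean fold, and those overlapped by a region. Others are said to be named after their values were seen. The code was tested on simulated data, where 200 of 200 planted genes were called as planted. The planned search for motifs in promoters was not run, as no sequence was used here, and no sequences are printed for the same reason. With 1 group there is no comparison between groups and no p-value. Alternatives varied the window, the libraries required, the peak threshold and the libraries used.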

Additional observations from a re-analysis of the deposited data

How the results depend on the processing

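Of the microRNA genes, 50 had a consensus region within 2000 bp, 23 outside and 27 inside protein-coding genes. The counts depended on the window. Within 1000 bp they were 28 in all, 12 outside and 16 inside. Within 5000 bp they were 90 in all and 56 inside. When the region had to overlap the hairpin they were 2 in all, 1 outside and 1 inside, and 2643 of all annotated genes. With peaks above each library's median fold they were 26 in all, 13 outside and 13 inside, and mir-ban was among those lost. With the window laid around the gene that contains the hairpin, chosen after the data were seen, they were 116 in all and 84 inside. Under peaks of at least 2 libraries, a −log10 q-value of at least 5, summits within 100 bp, distance to the region's centre and loci in place of genes, the counts stayed within 1.5 times. Leaving out 1 library gave 52 to 55 in all, 23 to 26 outside and 29 inside, against 5268 to 5469 of all annotated genes. Without replicate 1 the call of mir-983-2 was lost, and no other was lost by leaving out a library. A region then needed peaks of only the 2 libraries left, a looser rule under which few calls could be lost. Of the 31 named members, 16 still had a region with the window of 1000 bp and the other 15 had none. The mean fold of the strongest region moved by more than its SD for 1 of those 16, and for 6 of 31 with the window of 5000 bp. It did so for none when a library was left out, but there the outcome was fixed. Dropping a library cannot move the mean of an unchanged region by more than its SD. No paired analysis was possible because there is only 1 group. Depth is unknown, so absence of a peak says only that none was called.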
